A study of Mus musculus with 30 samples.

Results

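The diet by genotype interaction in the aorta was the difference between a pair of diet effects: that of a high-fat diet (HFD) against a standard fat diet (SFD) in mice without EGFR in vascular smooth muscle (KO), minus the same effect in wild-type mice (WT). It was computed for every gene as (KO-HFD minus KO-SFD) minus (WT-HFD minus WT-SFD), with groups taken from the genotype and diet in the sample labels. All 14 aorta libraries entered, of 30 libraries in the series. Values are on the log2 scale. A positive value means that HFD went with a higher level, or with a smaller loss, in KO than in WT, and a negative value means the opposite.

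The groups were WT-SFD (3 mice), WT-HFD (4), KO-SFD (3) and KO-HFD (4), with 1 library of total aortic RNA per mouse. The group size stated for the aortae in the study's legends is larger than the SFD groups analysed here. The label gives the strain as C57Bl6J, and all mice had received tamoxifen at 1 mg per day for 5 days. HFD began 7 days later, at 6 weeks of age, and lasted 18 weeks, while SFD mice stayed on the standard diet. All mice carried a tamoxifen-inducible Cre recombinase under the Smmhc promoter, which is active in smooth muscle, and this Cre lies on the Y chromosome, so carriers are males. In KO mice this Cre cut floxed Egfr, and WT mice had the Cre without loxP sites. The knockout therefore leaves EGFR in the endothelium, the adventitia and the fat around the vessel. The study asked whether smooth muscle EGFR takes part in the vascular damage of diet-induced obesity.

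EGFR is a receptor tyrosine kinase that binds EGF-like ligands, forms dimers with its ErbB relatives and signals through the MAPK cascade. In smooth muscle it can also be activated by vasoconstrictors, which release its ligands from the cell surface. One of its nuclear outputs is the serum response factor SRF, which drives fast immediate early genes together with Elk proteins and contractile genes together with myocardin.

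The libraries held 6403699 to 13052870 counts. Of the 14796 genes that passed the filter on low counts, 0 had a diet effect that differed between the genotypes at an adjusted p under 0.05 (0%, quasi-likelihood test of edgeR adjusted by Benjamini-Hochberg, smallest adjusted p = 0.83). At an unadjusted p under 0.05 there were 646 genes (4.37%), of which 333 (2.25%) were positive and 313 (2.12%) negative. The diet effects themselves also gave 0 genes at an adjusted p under 0.05 in this fit. In WT that count was 312 with library totals, 666 with DESeq2, 1924 with limma voom and 1907 without WT-SFD-1445. There were 2520 genes (17%) at an unadjusted p under 0.05 in WT and 1162 (7.85%) in KO. Of these, 841 (5.68%) were higher and 1679 (11.3%) lower on HFD in WT, and 406 (2.74%) were higher and 756 (5.11%) lower in KO. With 1 mouse left out the WT count ran from 1584 (without WT-SFD-1309) to 3875 (without WT-SFD-1445) and the KO count from 466 (without KO-SFD-1319) to 1810 (without KO-SFD-1507). DESeq2 called 2 genes for the interaction, Bank1, a scaffold protein of B cells, at -3.17 (DESeq2 adjusted p = 0.0339) and the predicted gene Gm20594 at 2.92 (DESeq2 adjusted p = 0.0339). Both were named after their values were seen. The split of the 646 genes depended on the scaling: with library totals in place of TMM factors the median gene moved from 0.02 to -0.20, and 120 genes were positive and 610 negative at an unadjusted p under 0.05. Small structural RNAs held 18.4% of the counts in KO-HFD-1454, 20.5% in KO-SFD-1507 and 20.8% in KO-SFD-1452, against 28.4% to 43.1% in the other libraries. The part of that in the move was not tested. All directions below are relative to the TMM scale.

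The precision set what could be seen. The median standard error was 0.322 for the interaction and 0.227 for the diet effect in either genotype. The 95% interval of the interaction lay within a log2 value of 1 on either side of 0 for 7903 genes (53.4%), so that a difference between the diet effects of 1 log2 unit lay outside the interval for these genes. Across all genes, which are not independent replicates, the diet effects in WT and KO had a Pearson correlation of 0.558 and a Spearman correlation of 0.359, with no library in common, and 9437 genes (63.8%) had the same sign in both genotypes. Both SFD groups held mice rich in adipocyte transcripts, as described below, and adipocyte markers had median diet effects of -3.64 in WT and -3.33 in KO. The part of these transcripts in the correlations was not tested. Of the 646 genes at an unadjusted p under 0.05, 280 were higher on HFD in WT and lower in KO, 282 were lower in WT and higher in KO, 34 were higher in both and 50 were lower in both. These genes were selected by the difference between the diet effects, which favours opposite signs, so the split is no separate result.

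**Figure D1:**
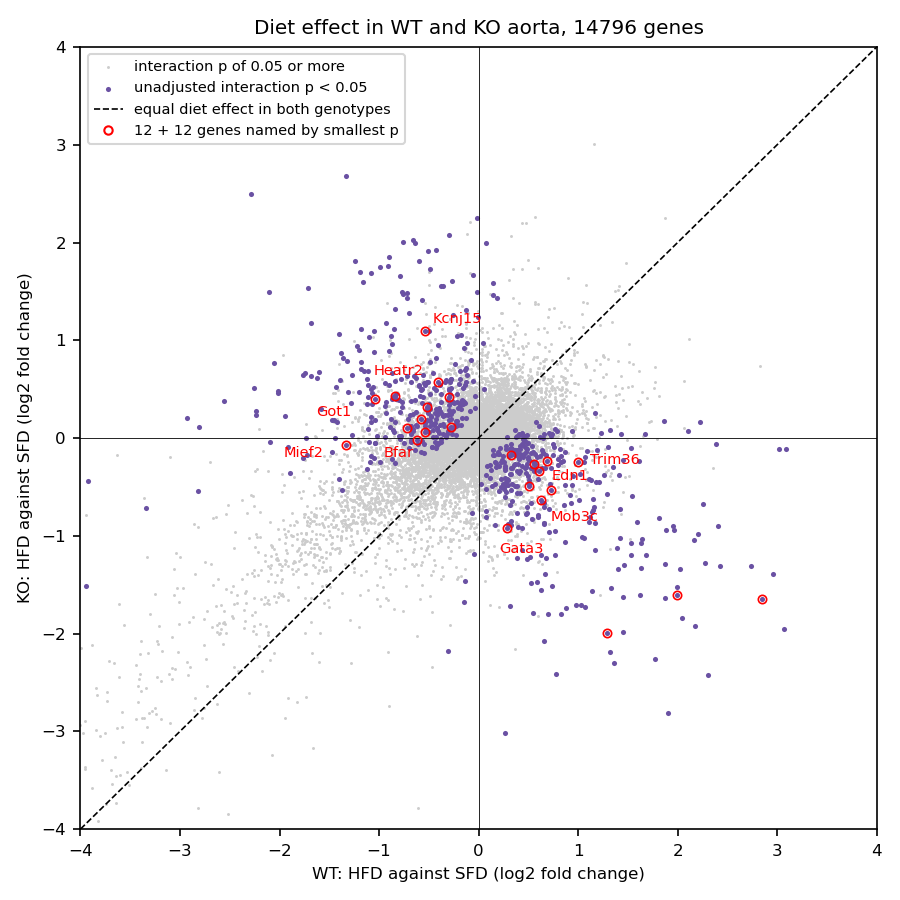
Log2 fold change of HFD against SFD in WT aortae (horizontal axis) and in KO aortae (vertical axis) for 14796 genes, 1 point per gene, with 63 genes outside the axes. Genes off the dashed diagonal had unequal diet effects, and the purple points, at an unadjusted interaction p under 0.05, lie mainly in the quadrants of opposite sign. Selection by the interaction favours that position.

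Before the single genes, 1 property of the libraries has to be stated, because many values below move with it. A list of 20 adipocyte markers, such as Adipoq, Plin1 and Cfd, summed to 9333, 7463 and 721 FPM (the CPM of edgeR with TMM-scaled library sizes) in mice WT-SFD-1309, WT-SFD-1310 and WT-SFD-1445. The sums were 6350 in mouse KO-SFD-1319, 2205 in mouse KO-SFD-1452 and 674 in mouse KO-SFD-1507, and on HFD the 8 mice ran from 565 to 923. Thus 4 SFD aortae were rich in adipocyte transcripts, and the other SFD mouse of each genotype was at the level of the HFD mice. Cfd, the adipsin of adipocytes, was the most abundant of these markers per length by its mean over all libraries. It had 638 FPM in mouse WT-SFD-1309, and 0 of the 20 markers were at 0 in that mouse. In bulk tissue, fewer cells of a type and less RNA per cell cannot be told apart. Smooth muscle markers were present in all libraries, with sums of 11300 to 20800 FPM, and were lowest in the 3 mice with the most adipocyte transcripts.

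The 24 genes named by the smallest p values, 12 in each direction, were protein-coding, had a mean of at least 5 FPM in a group. None passed the adjustment over all genes, where their adjusted p values ran from 0.904 to 0.998 in edgeR. All 12 negative genes were higher on HFD in WT and lower on HFD in KO. Of the 12 positive genes, 12 were lower on HFD in WT, and 10 were higher on HFD in KO. For 9 of the 12 genes in either direction the WT effect was the larger. These directions follow in part from the selection of the genes by the contrast.

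Of the 12 negative genes, Edn1 (chromosome 13, 42301476 to 42307990), which encodes the endothelial vasoconstrictor endothelin-1, had 14.5, 13.2 and 20.8 FPM in WT-SFD and 24.4, 24.3, 27.6 and 22.1 FPM in WT-HFD mice. In KO it had 17.0, 26.9 and 26.6 FPM on SFD and 21.0, 17.6, 20.5 and 15.2 FPM on HFD. All WT-HFD mice lay above all WT-SFD mice, whereas the diets overlapped in KO. The interaction of Edn1 was -0.95 (standard error 0.267, edgeR adjusted p = 0.96).
Bmp6 (chromosome 13, 38345107 to 38500302), a ligand of the BMP family, had a mean of 38.6 ± 14.6 FPM (SD, n = 3) in WT-SFD and 62.1 ± 4.15 FPM (SD, n = 4) in WT-HFD mice. KO-SFD mice averaged 66.5 ± 11.6 FPM (SD, n = 3), KO-HFD mice averaged 56.5 ± 3.74 FPM (SD, n = 4), and its interaction was -0.92 (standard error 0.266, edgeR adjusted p = 0.96). The 3 WT-SFD mice, with 25.4, 36.1 and 54.3 FPM, lay below all WT-HFD mice, and the highest of them reached into the KO range.
Igfbp6 (chromosome 15, 102144362 to 102149511), which binds insulin-like growth factors, had 39.7, 41.0 and 39.2 FPM in KO-SFD and 22.9, 34.2, 27.0 and 29.5 FPM in KO-HFD mice. Here it was the KO groups that did not overlap, and the WT means of 25.9 ± 7.45 FPM on SFD and 36.6 ± 7.31 FPM on HFD (SD, n = 3 and 4) lay in the opposite order. The interaction of Igfbp6 was -0.996 (standard error 0.277, edgeR adjusted p = 0.96).

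Mob3c (chromosome 4, 115828092 to 115836185), a kinase activator of the MOB family, had 4.78, 5.43 and 4.48 FPM in WT-SFD, 5.51, 8.94, 6.88 and 9.08 in WT-HFD, 7.50, 6.41 and 8.43 in KO-SFD and 4.03, 5.35, 5.12 and 4.65 FPM in KO-HFD mice. The diet groups did not overlap in either genotype and lay in opposite order. Its interaction of -1.26 (standard error 0.298, edgeR adjusted p = 0.904) had the smallest p of the 24 genes.
Gata3 (chromosome 2, 9857078 to 9890034), a zinc finger transcription factor, differed mainly in KO, with 16.1, 20.3 and 13.8 FPM on SFD and 10.5, 9.58, 5.60 and 9.71 FPM on HFD, and its interaction was -1.21 (standard error 0.341, edgeR adjusted p = 0.96). Trim36, a ubiquitin ligase, differed mainly in WT, with means of 4.20 ± 0.737 FPM in WT-SFD and 8.34 ± 2.67 FPM in WT-HFD mice, against 9.37 ± 2.45 FPM in KO-SFD and 7.97 ± 0.963 FPM in KO-HFD mice (SD, n = 3 on SFD and 4 on HFD). The sorting nexin Snx2 had the smallest value of the 12, -0.51 (standard error 0.145, edgeR adjusted p = 0.96), and its diet groups did not overlap in either genotype. Vmac, at -0.83, the homeobox gene listed as Nkx6.1, at -1.26, and the lymphocyte genes Cd79a and Btla were also among the 12.

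**Figure D2:**
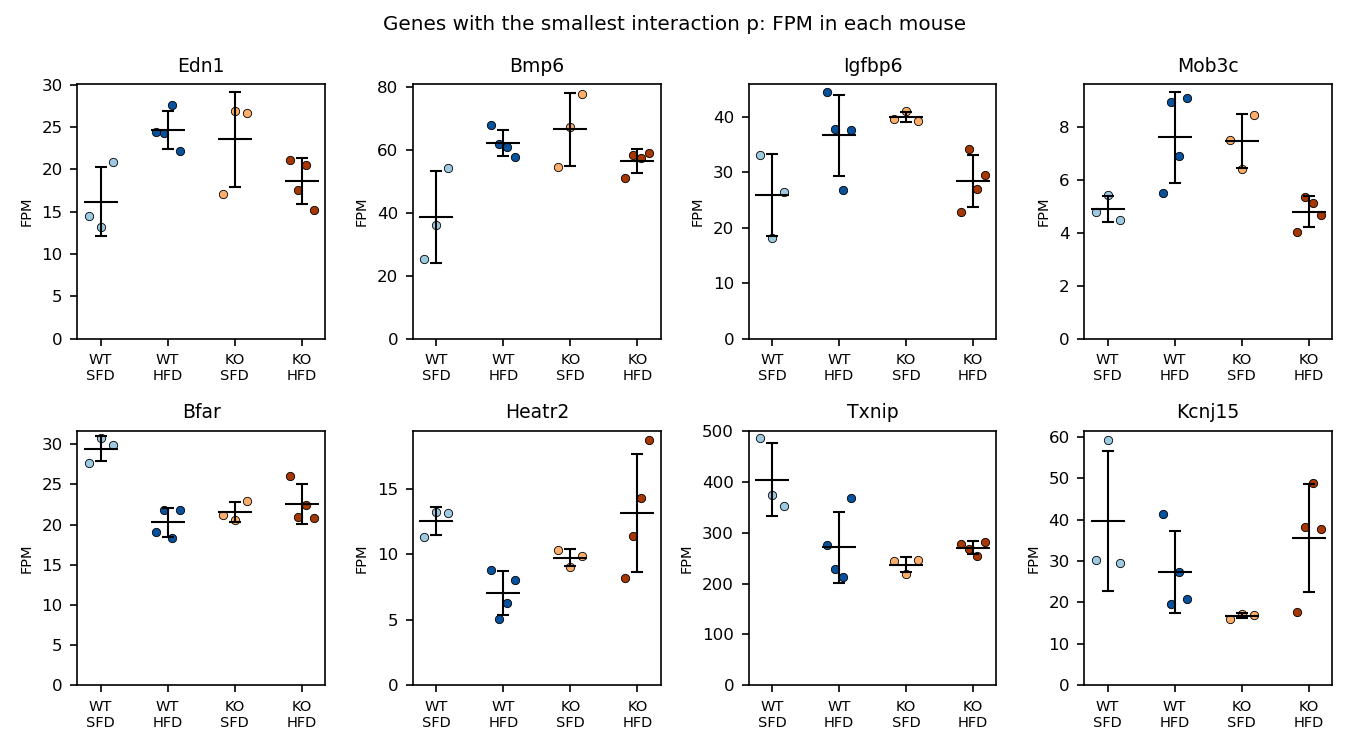
FPM of 8 of the named genes in each mouse (vertical axes, starting at 0) by genotype and diet (horizontal axes), with bars for the mean and SD of 3 or 4 mice. In the upper row (Edn1, Bmp6, Igfbp6 and Mob3c) WT means are higher and KO means lower on HFD, and in the lower row (Bfar, Heatr2, Txnip and Kcnj15) WT means are lower and KO means higher on HFD.

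Of the 12 positive genes, Txnip (chromosome 3, 96557957 to 96561883), the thioredoxin-interacting protein that restrains glucose uptake, was the most abundant, with 486, 375 and 353 FPM in WT-SFD and 276, 228, 213 and 369 FPM in WT-HFD mice. In KO it had 245, 220 and 247 FPM on SFD and 279, 267, 254 and 283 FPM on HFD. The KO groups did not overlap, and mouse WT-HFD-1448 lay within the WT-SFD range. The interaction of Txnip was 0.77 (standard error 0.232, edgeR adjusted p = 0.998).
Got1, the cytosolic aspartate aminotransferase, had 5.73, 6.36 and 4.33 FPM in WT-SFD and 2.24, 2.71, 1.88 and 3.96 FPM in WT-HFD mice, with an interaction of 1.44 (standard error 0.396, edgeR adjusted p = 0.96). Mief2, which takes part in mitochondrial fission, averaged 8.74 ± 3.26 FPM in WT-SFD, 3.49 ± 0.704 in WT-HFD, 5.01 ± 0.654 in KO-SFD and 4.80 ± 0.611 FPM in KO-HFD mice (SD, n = 3 on SFD and 4 on HFD). The peroxisomal carrier Slc25a17 showed the same shape, with a mean of 23.3 ± 2.85 FPM (SD, n = 3) in WT-SFD and group means of 15.2 to 17.1 FPM elsewhere. For Got1, Mief2 and Slc25a17 the WT-SFD mice lay above all WT-HFD mice, and for Slc25a17 also above all KO mice.

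Kcnj15 (chromosome 16, 95257558 to 95300260), an inwardly rectifying potassium channel, had the largest value of the 12, 1.63 (standard error 0.464, edgeR adjusted p = 0.96). Its levels in KO were 16.1, 17.3 and 16.9 FPM on SFD and 17.6, 38.3, 48.9 and 37.8 FPM on HFD, so that 3 of the 4 KO-HFD mice stood high and mouse KO-HFD-1454 was next to the SFD mice. In WT it had 30.2, 59.3 and 29.6 FPM on SFD and 41.3, 19.7, 27.3 and 20.8 FPM on HFD, with overlap. Bfar, an apoptosis regulator, had 27.7, 30.8 and 29.9 FPM in WT-SFD mice and 18.3 to 26.0 FPM in the other 11. Heatr2, needed for the assembly of dynein arms, had 11.3, 13.2 and 13.1 FPM in WT-SFD and 8.77, 5.02, 6.26 and 8.06 FPM in WT-HFD mice, and its interaction was 1.27 (standard error 0.347, edgeR adjusted p = 0.96). Wdr26, a part of a ubiquitin ligase complex, had the smallest value, 0.40, with the smallest standard error, 0.111 (edgeR adjusted p = 0.96). BC004004, Rpl36.ps3, Sccpdh and Zfp763 had values of 0.84, 0.72, 0.82 and 0.98. Without the 4 SFD mice rich in adipocyte transcripts Mief2 had 0.35, BC004004 0.38, Sccpdh 0.47, Txnip 0.505 and the negative gene Gata3 -0.76, and with library totals Wdr26 had 0.17, Slc25a17 0.37 and Bfar 0.395. The other named genes of the 24 moved by less than 1.5 times under every setting tried. Rpl36.ps3 carries the name of a ribosomal protein pseudogene, so its reads cannot be separated with certainty from those of near-identical copies.

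The diet groups failed to overlap in both genotypes, in opposite order, for 18 genes (0.122%). Of these, 10 (0.0676%) were higher on HFD in WT and lower in KO, and 8 (0.0541%) were the reverse. In the same order in both genotypes there were 130 genes (0.879%), and without regard to the other genotype the diet groups did not overlap for 8.96% of genes in WT and 7.04% in KO. Mob3c, Nkx6.1, Snx2, Esco1 and Greb1l were named from the first kind. Esco1, an acetyltransferase of sister chromatid cohesion, had 17.1, 18.3 and 18.8 FPM in WT-SFD, 19.1 to 22.0 in WT-HFD, 19.6 to 22.5 in KO-SFD and 16.7 to 18.0 FPM in KO-HFD mice, so the groups were separate by narrow gaps. From the second kind came Zfp763, Rpl37, Secisbp2 and Ubxn2b, with interactions of 0.98, 0.94, 0.37 and 0.32. Their 95% intervals were 0.37 to 1.59, 0.19 to 1.68, 0.0007 to 0.74 and -0.02 to 0.67, so that of Ubxn2b included 0. The edgeR adjusted p was 0.96 for Zfp763 and 0.998 for Rpl37, Secisbp2 and Ubxn2b. With library totals Secisbp2 had 0.16 and Ubxn2b 0.105, and Ubxn2b had 0.19 without WT-SFD-1445 and Secisbp2 0.245 without KO-SFD-1507. Rpl37, a ribosomal protein gene with many processed copies, is uncertain for the same reason as Rpl36.ps3.

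For Egfr itself (chromosome 11, 16752203 to 16918158) no interaction was detectable. Its value was -0.07 with a 95% interval from -0.53 to 0.40 (edgeR adjusted p = 0.999), and its level was lower in every KO mouse (26.8 to 40.6 FPM) than in every WT mouse except mouse WT-SFD-1310, at 39.5 FPM. The ErbB receptors and their adaptors had a median interaction of -0.03, with 4 of 10 tested genes positive, where all genes had a median of 0.02 with 53.1% positive. Erbb2, the partner of EGFR in dimers, had -0.15 (95% interval -0.59 to 0.30). With 1 mouse left out it ran from -0.32 (without KO-SFD-1452) to -0.02 (without WT-SFD-1310). Erbb3, a receptor for neuregulins, had 7.92, 4.10 and 3.03 FPM in WT-SFD, 1.22, 1.31, 1.98 and 0.767 in WT-HFD, 2.81, 0.975 and 1.90 in KO-SFD and 1.96, 1.03, 1.60 and 1.37 FPM in KO-HFD mice. WT-SFD mice were above all others for Erbb3, and the interaction was 1.53 (standard error 0.603, edgeR adjusted p = 0.998). Erbb3 is also a gene of Schwann cells, and the summed Schwann cell markers were 222 FPM in mouse WT-SFD-1309, where Erbb3 was highest, and 108 to 147 FPM in the other 13 mice. The part of that in the value was not tested. Without mouse WT-SFD-1309 the interaction of Erbb3 was 1.06 and its unadjusted p was no longer under 0.05.

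The EGFR ligands and their sheddases had a median of -0.18, with 2 of 7 positive. Hbegf, the heparin-binding ligand of smooth muscle, was among the positive ones at 0.11 (95% interval -0.68 to 0.91). The feedback genes of the MAPK cascade had a median of -0.02, with 3 of 11 positive. Spry2, an inhibitor of receptor tyrosine kinase signalling, had the only unadjusted p under 0.05 in that list, with 5.19, 6.26 and 11.3 FPM in WT-SFD, 8.57, 9.65, 13.1 and 13.4 in WT-HFD, 10.6, 7.24 and 7.89 in KO-SFD and 7.21, 8.17, 5.68 and 6.70 FPM in KO-HFD mice. Over all genes 4.37% had an unadjusted p under 0.05. The diets overlapped in both genotypes for Spry2. Its interaction was -0.87 (standard error 0.368, edgeR adjusted p = 0.998), with an unadjusted p under 0.05 in 8 of the 14 fits with 1 mouse left out, and -0.18 without the 4 SFD mice rich in adipocyte transcripts. Rgs5, a regulator of G protein signalling in smooth muscle, had 0.28 (95% interval -0.26 to 0.83).

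With 1 mouse left out the medians of the ErbB, ligand, feedback and SRF lists ran from -0.08 to 0.08, -0.39 to -0.05, -0.18 to 0.04 and -0.04 to 0.095, and the ligand median was 0.03 without the 4 SFD mice rich in adipocyte transcripts. SRF and its cofactors stood near 0, with a median of 0.03 and 4 of 7 positive, and Srf itself at -0.12 (95% interval -0.46 to 0.22). Srf had -0.18 without WT-HFD-1443 and -0.02 without WT-HFD-1447. The immediate early genes, by contrast, had a median of -0.45, with 1 of 18 positive. Their median diet effect was 0.63 in WT and 0.05 in KO. The mean log2 CPM of the 18 genes was 3.85 in WT-SFD-1309, 4.39 in WT-SFD-1310 and 5.37 in WT-SFD-1445, and 5.21, 4.91, 5.79 and 5.20 in WT-HFD mice. In KO it was 4.92, 4.57 and 4.93 on SFD and 4.98, 5.09, 4.78 and 4.62 on HFD. The first and second of these WT-SFD mice were low and all others lay between 4.57 and 5.79, with mouse WT-SFD-1445 among the WT-HFD mice. The 2 low mice were also those with the most adipocyte transcripts. With 1 mouse left out the median of the list ran from -0.94 (without WT-SFD-1445) to -0.26 (without WT-SFD-1309). Without the 4 SFD mice rich in these transcripts the median was -0.01. It was -0.94 without mice WT-SFD-1445 and KO-SFD-1507, and -0.62 with the adipocyte marker mean as a covariate.

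Cyr61 (chromosome 3, 145646976 to 145649981), a matricellular protein, was the only 1 of the 18 with an unadjusted p under 0.05 (4.37% over all genes). It had 29.2, 64.4 and 152 FPM in WT-SFD, 111, 164, 378 and 86.6 in WT-HFD, 141, 102 and 126 in KO-SFD and 112, 99.4, 80.6 and 67.9 FPM in KO-HFD mice. Mouse WT-HFD-1447 stood high and mouse WT-SFD-1309 low. The interaction of Cyr61 was -1.63 (standard error 0.690, edgeR adjusted p = 0.998) and -1.01 without mouse WT-HFD-1447, and its unadjusted p stayed under 0.05 in 8 of the 14 fits with 1 mouse left out. Jun, a subunit of AP-1, had -0.81 (standard error 0.394), Egr1, a zinc finger factor, had -0.32 (standard error 0.357), and Fos had -0.41 (standard error 0.806). Fosl1 was the 1 positive gene, at 0.30. Fos ranged from 9.96 to 81.7 FPM among the 3 WT-SFD mice alone, which is a wider range than that of the 7 KO mice (21.7 to 66.1 FPM).

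SRF binds the CArG box (CC, then 6 bases that are each A or T, then GG), which was searched in promoter windows from 250 bases before to 50 bases after the start of each gene (RefSeq, GRCm38.p6). A window was found for 13 of the 18 immediate early genes and 14 of the 16 contractile genes, and a box was in 2 of each (15.4% and 14.3%), against 155 of 9811 tested genes with a window (1.58%). The search reads both strands, since the reverse complement of a box is again a box. The genes with a box are shown because they display the element through which the factor acts, and the capitals mark the box. Egr2 has a further box in the window of another start site, which is not printed.
Zfp36, chr7:28379252-28379311, minus strand: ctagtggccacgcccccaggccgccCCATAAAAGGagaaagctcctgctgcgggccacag
Egr2, chr10:67537772-67537831, plus strand: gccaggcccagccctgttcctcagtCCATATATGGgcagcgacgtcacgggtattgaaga
Vcl, chr14:20929148-20929205, plus strand: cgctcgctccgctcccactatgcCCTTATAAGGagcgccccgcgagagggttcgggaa
Myl9, chr2:156775278-156775337, plus strand: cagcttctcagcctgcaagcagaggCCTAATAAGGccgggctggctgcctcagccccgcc
Zfp36, an RNA-destabilising protein, had an interaction of -0.39 (edgeR adjusted p = 0.998), and Egr2 had -0.71 (edgeR adjusted p = 0.998). The contractile genes Vcl and Myl9 had -0.10 and -0.08. A match describes these windows and says nothing about binding, and its absence from a searched window says only that the letters are not there. Of the immediate early genes, Ctgf, Egr1, Egr3, Fosl1 and Ier2 had no window and were not searched.

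The contractile genes had a median of -0.09, with 4 of 16 positive and 0 at an unadjusted p under 0.05. Acta2, smooth muscle actin, had -0.27 (95% interval -0.998 to 0.47), and Myh11, the smooth muscle myosin heavy chain, had -0.12 (95% interval -0.81 to 0.56). The mean log2 CPM of the list was 8.64 in mouse WT-SFD-1309 and 8.82 in mouse KO-SFD-1319, the lowest of the 14, and 9.04 to 9.32 in the others. Contraction receptors and regulators had a median of -0.04, with 8 of 21 positive, and endothelial and nitric oxide genes one of -0.02, with 7 of 18 positive. Edn1 was the only gene of these 18 with an unadjusted p under 0.05, and over all genes 4.37% passed that threshold. Without WT-SFD-1309 the contractile, contraction and endothelial medians were 0.04, 0.08 and 0.02, Myh11 had 0.07, and Acta2 ran from -0.50 without KO-SFD-1319 to -0.13 without KO-SFD-1452.

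**Figure D3:**
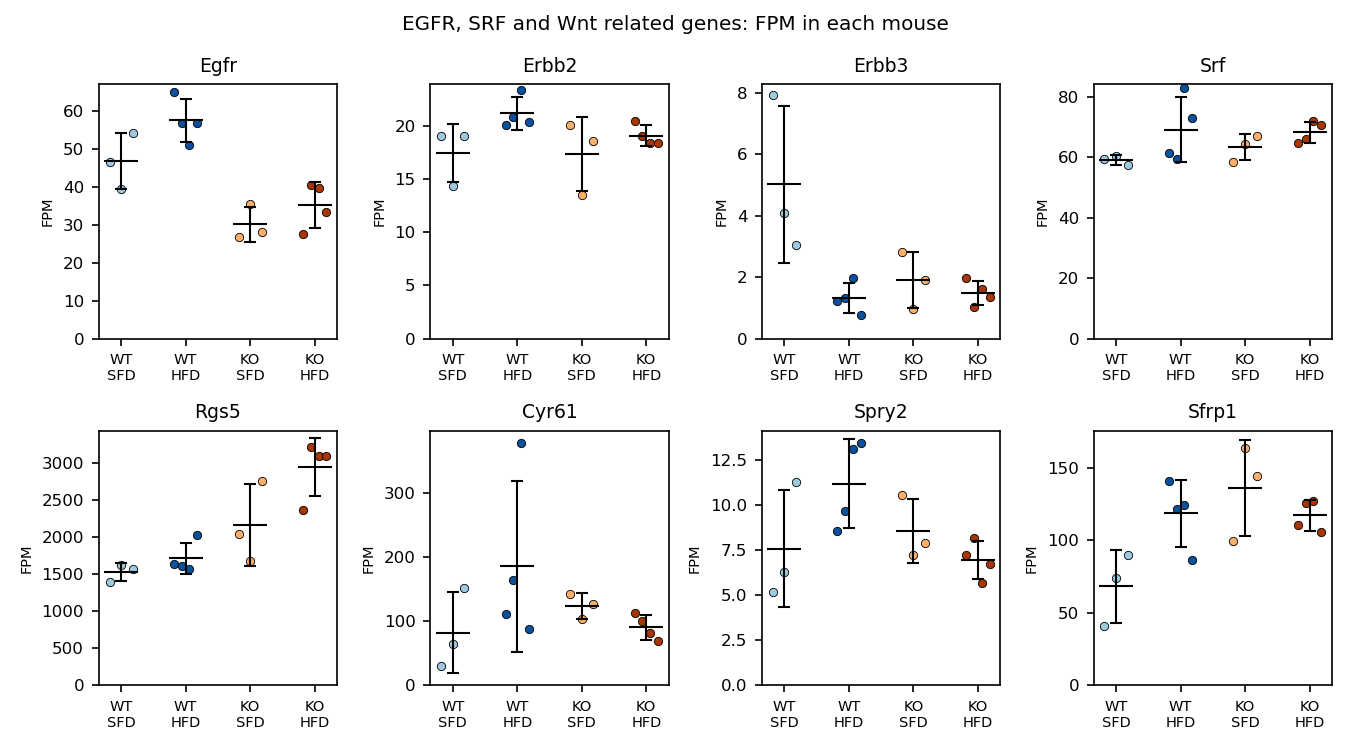
FPM of Egfr, Erbb2, Erbb3, Srf, Rgs5, Cyr61, Spry2 and Sfrp1 in each mouse (vertical axes, starting at 0) by genotype and diet (horizontal axes), with bars for the mean and SD of 3 or 4 mice. Egfr, Erbb2, Srf and Rgs5 had interactions of -0.07, -0.15, -0.12 and 0.28, each with a 95% interval that includes 0, and the WT-SFD means of Cyr61, Spry2 and Sfrp1 are the lowest or next to the lowest of the 4 groups and that of Erbb3 is high.

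In the Wnt pathway, which controls growth and matrix production in the vessel wall, the median was -0.25, with 9 of 25 positive and 2 negative genes at an unadjusted p under 0.05. The shares over all genes were 53.1% positive, and 2.12% negative at that threshold. The Wnt median was -0.13 without WT-SFD-1310, -0.39 without WT-SFD-1445 and -0.09 without the 4 SFD mice rich in adipocyte transcripts. Sfrp1 (chromosome 8, 23411502 to 23449632), a secreted Wnt antagonist, had 40.5, 74.0 and 90.0 FPM in WT-SFD, 141, 122, 125 and 86.8 in WT-HFD, 99.4, 164 and 145 in KO-SFD and 110, 126, 127 and 106 FPM in KO-HFD mice. The WT-SFD mice were the lowest group, with mouse WT-HFD-1448 inside their range. The interaction of Sfrp1 was -1.01 (standard error 0.326, edgeR adjusted p = 0.998), and it lay between -1.26 and -0.75 with any 1 mouse left out. Lef1, a transcription factor at the end of the pathway that lymphocytes also express, had -2.96, at 0.273 to 1.74 FPM in all mice but WT-HFD-1442 (8.67), KO-SFD-1507 (5.71) and KO-HFD-1503 (2.25). Without mouse KO-SFD-1507 its value was -1.76 and without WT-HFD-1442 it was -1.45, and its unadjusted p stayed under 0.05 in 8 of the 14 fits with 1 mouse left out.
The matrix genes had a median of -0.11, with 8 of 26 positive and 0 at an unadjusted p under 0.05. Fn1, fibronectin, had 0.20 (95% interval -0.32 to 0.72) and Eln, elastin, had -0.24 (95% interval -1.48 to 0.996). Without KO-SFD-1452 the matrix median was 0.06 and Eln had 0.26, and without KO-SFD-1319 they were -0.275 and -0.595. Fn1 had 0.09 without KO-SFD-1319, 0.30 without KO-SFD-1507 and -0.05 with library totals. The TGF-beta pathway stood at -0.02, with 6 of 15 positive, and ran from -0.15 without WT-SFD-1445 to 0.04 without KO-SFD-1507.

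The genes of energy metabolism had positive interactions nearly throughout, but few single genes stood out. For the subunits of oxidative phosphorylation the medians were 0.25 for complex I (31 of 35 positive), 0.51 for complexes II and III (12 of 12), 0.30 for complex IV (8 of 8) and 0.41 for the ATP synthase (14 of 14). The tricarboxylic acid cycle had 0.48 (11 of 12), fatty acid oxidation 0.47 (18 of 18), glycolysis and glucose uptake 0.51 (19 of 21), and fatty acid and triglyceride synthesis 0.80 (14 of 15). Among all these genes only Atp5g2, a subunit of the ATP synthase, and Tpi1, a glycolytic enzyme, had an unadjusted p under 0.05. Over all genes 4.37% passed that threshold, and 53.1% had a positive interaction.
Sdha, the flavoprotein of complex II, averaged 272 ± 158 FPM in WT-SFD, 92.6 ± 6.57 in WT-HFD, 159 ± 71.6 in KO-SFD and 98.1 ± 2.90 FPM in KO-HFD mice (SD, n = 3 on SFD and 4 on HFD). The SFD mice spread far more widely than the HFD mice for this gene, and its interaction was 0.86 (standard error 0.481, edgeR adjusted p = 0.998). Hadha, of fatty acid oxidation, had 0.81 (standard error 0.653), and Fasn, the fatty acid synthase, had 1.17 (standard error 1.36). For Sdha, Hadha and Fasn the values were 0.42, 0.28 and 0.48 without WT-SFD-1309. They were 0.205, -0.04 and -0.44 without the 4 SFD mice rich in adipocyte transcripts. With 1 mouse left out the highest values were 1.25 for Sdha (without WT-SFD-1445), 1.43 for Hadha and 2.59 for Fasn (both without KO-SFD-1319).
Atp5g2 had 16.9, 16.8 and 10.3 FPM in WT-SFD, 7.75, 8.34, 9.07 and 9.08 in WT-HFD, 9.24, 11.8 and 8.97 in KO-SFD and 8.93, 10.8, 11.9 and 8.62 FPM in KO-HFD mice. All WT-SFD mice lay above the WT-HFD mice, and the KO groups overlapped. Its interaction was 0.80 (standard error 0.273, edgeR adjusted p = 0.998), and 0.44 without the 4 SFD mice rich in adipocyte transcripts. Tpi1 had 0.54 (standard error 0.224, edgeR adjusted p = 0.998), and its unadjusted p stayed under 0.05 in 7 of the 14 fits with 1 mouse left out, with the lowest value, 0.34, without WT-SFD-1309.

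These lists moved with the adipocyte transcripts of the SFD mice. The mean log2 CPM of the tricarboxylic acid cycle genes was 7.22 in WT-SFD-1309, 6.86 in WT-SFD-1310 and 5.36 in WT-SFD-1445. It was 6.77 in KO-SFD-1319, 6.13 in KO-SFD-1452 and 5.39 in KO-SFD-1507, and 5.32 to 5.55 in all 8 HFD mice. The 4 high values belong to the 4 mice rich in adipocyte transcripts. With the adipocyte marker mean as a covariate the medians stayed positive and were smaller: 0.18 for complex I, 0.37 for complexes II and III, 0.14 for complex IV, 0.30 for the ATP synthase, 0.32 for the tricarboxylic acid cycle, 0.26 for fatty acid oxidation, 0.45 for glycolysis and 0.39 for fatty acid synthesis. Without the 4 SFD mice rich in adipocyte transcripts, which leaves 1 SFD mouse per genotype, they were -0.06, 0.02, -0.08, -0.02, -0.09, -0.12, 0.08 and -0.37. Without mouse WT-SFD-1309 alone the median of complex I was 0.02 and that of complex IV -0.06, and without mouse WT-SFD-1445 they were 0.56 and 0.73. The lowest medians of the other 6 lists with 1 mouse left out were 0.12 for complexes II and III, 0.16 for the ATP synthase, 0.09 for the tricarboxylic acid cycle, 0.22 for glycolysis and 0.19 for fatty acid synthesis, all without WT-SFD-1309, and 0.09 for fatty acid oxidation without KO-SFD-1507. The highest, without KO-SFD-1319, were 0.90 for complexes II and III, 0.98 for the tricarboxylic acid cycle and 1.16 for fatty acid oxidation. Glycolysis reached 0.84 and fatty acid synthesis 1.65 without the same mouse, and the ATP synthase reached 0.68 without WT-SFD-1445. The adipocyte markers themselves had a median of 0.49 (16 of 20 positive), and the brown adipocyte markers one of 0.61 (11 of 11). Without WT-SFD-1309 the adipocyte median was -0.18 and without KO-SFD-1319 it was 1.57, and the brown adipocyte median was -0.04 without KO-SFD-1507, so that single mice turned either sign. None of the 20 adipocyte markers is in the metabolic lists, but the brown adipocyte markers Cox7a1 and Cox8b are also in complex IV and Cpt1b in fatty acid oxidation.

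**Figure D4:**
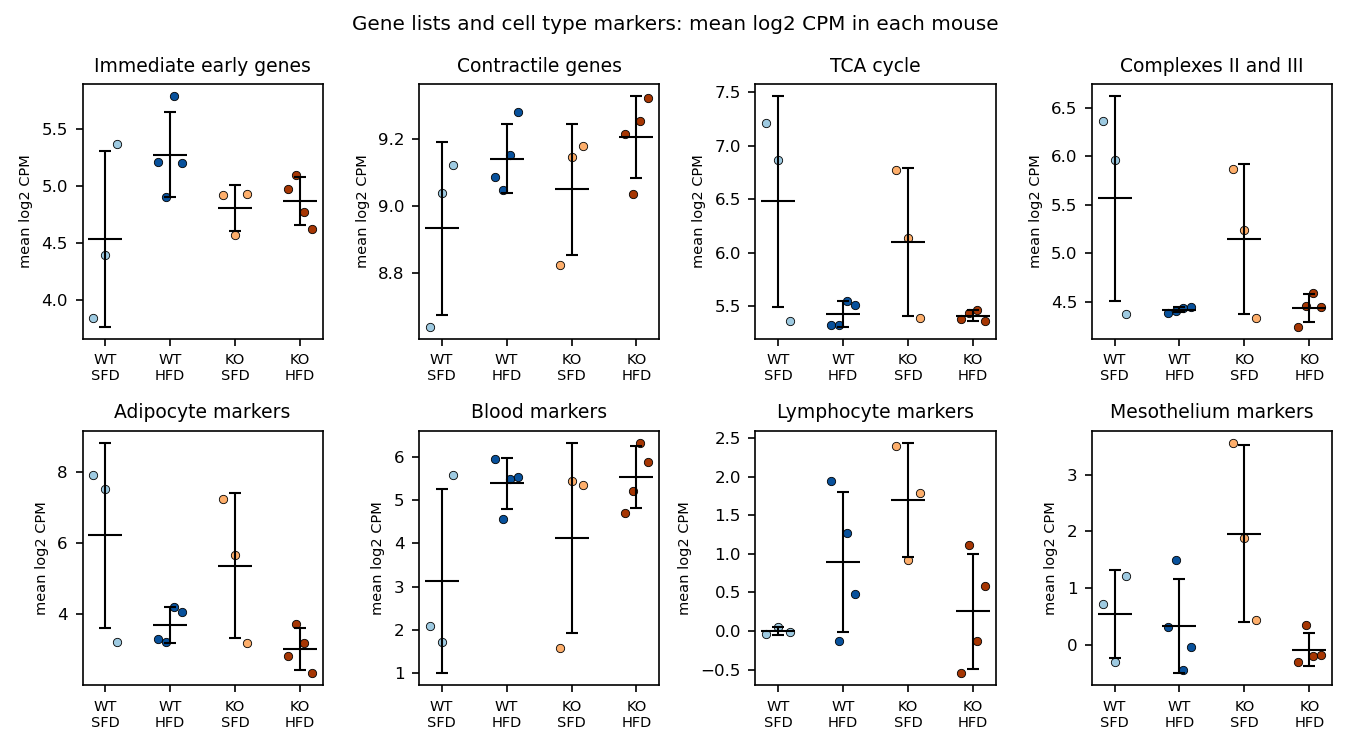
Mean log2 CPM of 4 gene lists (upper row) and 4 lists of cell type markers (lower row) in each mouse (vertical axes, not starting at 0) by genotype and diet, with bars for the mean and SD of 3 or 4 mice. In both genotypes the SFD mice spread widely for adipocyte markers and metabolic genes, with tricarboxylic acid cycle means of 5.36 to 7.22, while the HFD mice lie between 5.32 and 5.55.

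Lymphocyte genes had a median of -3.41, with 0 of 12 positive and 8 at an unadjusted p under 0.05. Among the 14796 tested genes, 2.12% were negative and past that threshold, and 53.1% had a positive interaction. The mean log2 CPM of the list was -0.04, 0.05 and -0.02 in WT-SFD and 1.94, -0.13, 1.27 and 0.48 in WT-HFD mice. In KO it was 2.40, 0.92 and 1.78 on SFD and -0.55, 1.12, -0.13 and 0.59 on HFD. The WT-SFD mice lay close together and below all KO-SFD mice, and the HFD mice of both genotypes were spread widely and overlapped both SFD groups or lay below them. The levels were small: Cd79b, a chain of the B cell receptor, had 0.955, 0.205 and 0.144 FPM in WT-SFD, 2.96, 0.402, 1.98 and 1.02 in WT-HFD, 3.62, 1.67 and 3.54 in KO-SFD and 0.122, 0.845, 0.240 and 0.410 FPM in KO-HFD mice, where 1 count is worth 0.08 to 0.144 FPM. All WT-SFD values were below all KO-SFD values, and the interaction of Cd79b was -4.71 (standard error 0.985, edgeR adjusted p = 0.83). Cd79a, its partner, had -3.60 and Ms4a1 had -4.03, and for these 3 B cell genes the unadjusted p stayed under 0.05 with any 1 mouse left out.
Ighm, the constant region of IgM, was different. The level was 1279 FPM in mouse KO-SFD-1319 and 8.24 to 27.1 FPM in the other 13, so that its interaction of -5.32 rested on that mouse and was -0.93 without it, with an unadjusted p above 0.05. Ighm took nearly all of the summed lymphocyte markers in that mouse, 1322 FPM, against 15.1 to 69.6 FPM elsewhere. Cd3e, Cd3d and Cd3g, the defining genes of T cells, lie on chromosome 9, where the file holds 0 for all 1978 genes in every library, so these zeros are not a measurement of T cells.

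The mesothelium markers also set mouse KO-SFD-1319 apart, with a sum of 39.0 FPM against 5.03 to 13.8 FPM in the other mice. Upk3b, a uroplakin of mesothelium, had 21.2 FPM there, 2.65 FPM in mouse KO-SFD-1452 and 0 to 2.11 FPM in the rest. Its interaction was -7.09 (standard error 2.349, edgeR adjusted p = 0.998), with counts at or near 0 in KO-HFD mice, and it was -4.56 without KO-SFD-1319 and -1.57 without the 4 SFD mice rich in adipocyte transcripts. The mesothelium median was -3.39 (0 of 3 positive), with -1.11 without KO-SFD-1319 and -0.03 without the 4 SFD mice. Blood markers, led by Hbb.bt per length, summed to 32.1, 19.8 and 23.7 FPM in mice WT-SFD-1309, WT-SFD-1310 and KO-SFD-1319 and to 182 to 832 FPM in the others, and their median interaction was -0.35 (0 of 6 positive). That median was -2.76 without WT-SFD-1445 and 0.17 without WT-SFD-1310. Cardiac muscle markers had a median of 1.74 (6 of 6 positive), and their sum was 623 FPM in mouse WT-SFD-1310 against 99.5 to 203 FPM elsewhere. The median of the cardiac list was -1.09 without that mouse. What part these tissues have in the values of other genes was not tested.

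Among the remaining lists, inflammation had a median of 0.36 (9 of 12 positive) and the interferon response 0.18 (12 of 18 positive). Without KO-HFD-1503 these medians were -0.16 and 0.04. Ccl7, a chemokine for monocytes, was listed at 0 counts in all 4 WT-HFD mice, which allows up to 0.384 FPM at 3 counts per library, and it had 0.409, 0.308 and 0.144 FPM in WT-SFD, 0.268, 1.11 and 0.634 in KO-SFD and 1.10, 1.88, 0.560 and 0.137 FPM in KO-HFD mice. Most of these values are within a few counts of that limit. The macrophage markers had a median of -0.24 (2 of 12 positive), the fibroblast markers -0.21 (3 of 9), the smooth muscle markers -0.12 (1 of 5), the endothelial markers -0.03 (3 of 7), the Schwann cell markers -0.04 (3 of 7) and the skeletal muscle markers 0.22 (3 of 3). With 1 mouse left out these medians ran from -0.63 (without KO-HFD-1503) to -0.11 (without KO-HFD-1454) for macrophages and from -0.40 (without KO-SFD-1319) to -0.01 (without WT-SFD-1310) for fibroblasts. They ran from -0.30 (without WT-SFD-1445) to 0.07 (without WT-SFD-1309) for smooth muscle and from -0.18 (without KO-SFD-1507) to 0.16 (without KO-SFD-1319) for endothelium. For Schwann cells the limits were -0.75 (without WT-SFD-1309) and 0.44 (without WT-SFD-1310), and for skeletal muscle 0.03 (without KO-HFD-1503) and 0.85 (without WT-HFD-1447).
Circadian clock genes stood at -0.24 (6 of 17 positive), a value that was 0.13 without mouse WT-HFD-1448 and -0.57 without mouse WT-SFD-1445. Cell cycle genes stood at -0.01 (6 of 12), with 0.32 without KO-SFD-1319, and included Aurka, a mitotic kinase, at -1.88 and Mcm5, a replication helicase subunit, at -1.07 (edgeR adjusted p = 0.998 for both), which kept an unadjusted p under 0.05 in 6 and 4 of the 14 fits with 1 mouse left out. Aurka had -0.87 with limma voom and sample quality weights, and Mcm5 had -1.67 without WT-SFD-1445 and -0.17 without the 4 SFD mice rich in adipocyte transcripts. Cholesterol synthesis had a median of 0.20 (10 of 14), antioxidant and ROS-producing enzymes 0.23 (15 of 22), and the heat shock and unfolded protein response 0.12 (13 of 19). Without WT-SFD-1309 the cholesterol median was -0.11, without KO-SFD-1507 the antioxidant median was 0.05, and without WT-HFD-1447 the heat shock median was 0.04. Nox4, the main NADPH oxidase of smooth muscle, had -0.04 (95% interval -0.68 to 0.60), with -0.325 without WT-SFD-1445 and 0.20 without KO-SFD-1507.

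**Figure D5:**
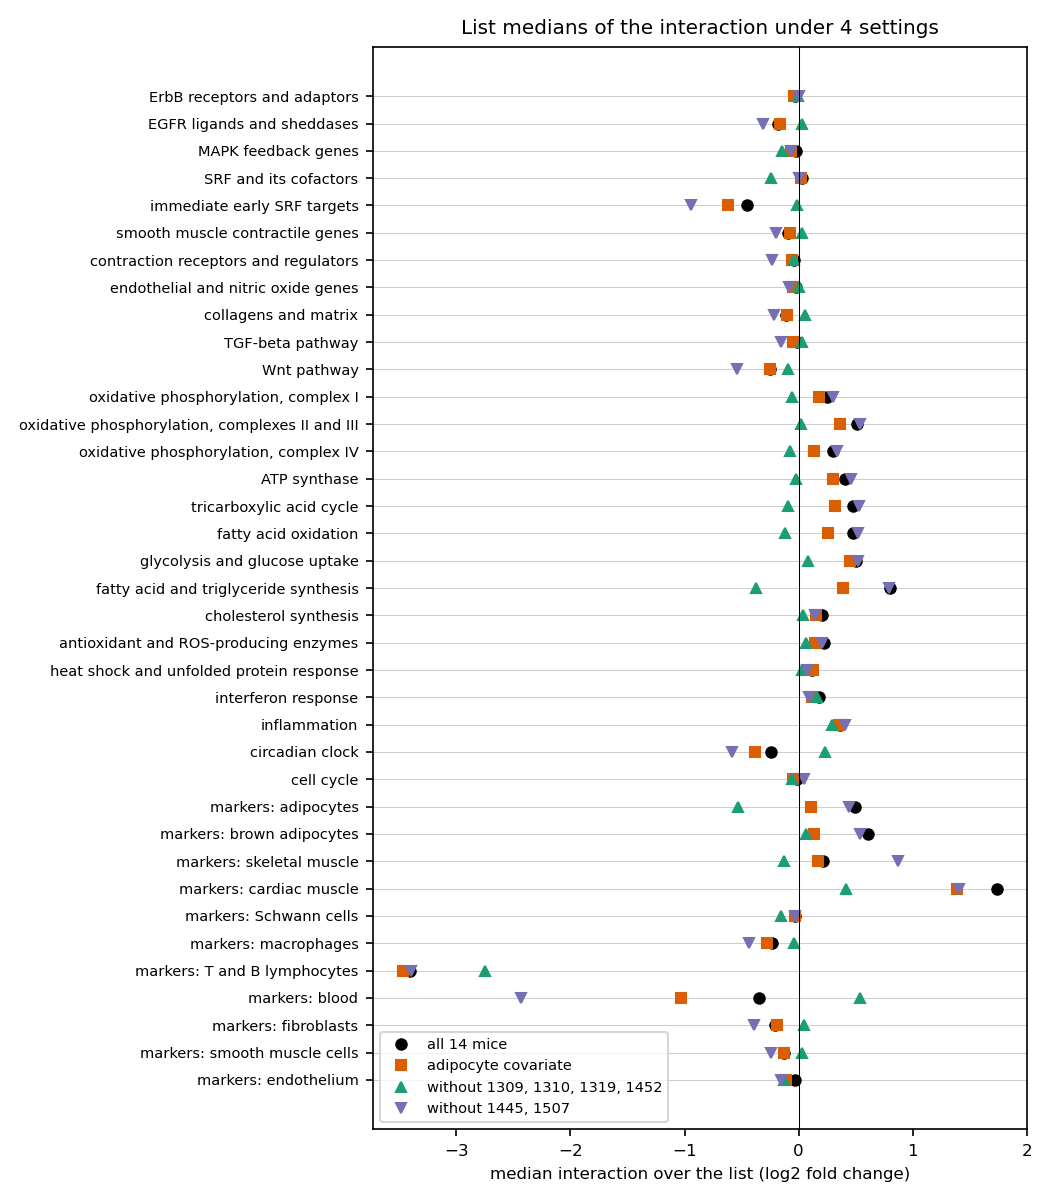
Median interaction (horizontal axis, log2 fold change) of the gene lists and marker lists (vertical axis, mesothelium left out) with all 14 mice, with the adipocyte marker mean as a covariate, and without 2 sets of SFD mice. The metabolic lists are positive with all mice, for example 0.48 for the tricarboxylic acid cycle, and near or below 0 without the 4 SFD mice rich in adipocyte transcripts, and the immediate early list moves from -0.45 to -0.01 under the same removal and to -0.94 without WT-SFD-1445 and KO-SFD-1507.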

How the data were processed

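Total RNA of aortae was depleted of ribosomal RNA and sequenced paired-end by the authors. Per the labels and the submitters' processing notes, reads were trimmed with cutadapt, aligned to mm10 (GRCm38) with TopHat and counted per gene with featureCounts, and the authors deposited raw counts, 1 column per mouse. By the study's methods, genes were annotated with BiomaRt. Strand setting and the treatment of multiple mapping are not given in the sources used here. All genes on chromosomes 9, X, Y and MT had 0 counts in every library, so list members there are not among those tested. These genes and those on the distal part of chromosome 8 were not analysed here, nor were the kidney libraries.

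Counts were analysed in R 4.3.3 with edgeR 4.0.16 (filterByExpr by group, TMM factors of 0.862 to 1.24, glmQLFit with legacy=FALSE, glmQLFTest, Benjamini-Hochberg adjustment over 14796 genes). All 14 libraries were fitted together with 1 coefficient per group. The common dispersion was 0.0531. FPM are the CPM that edgeR gives with TMM-scaled library sizes, and log2 CPM use a prior count of 2. The labels identify single mice, so p values measure the spread between mice. No 2 libraries were copies (smallest chi-square per gene 8.38 among 91 pairs). The fit was tested on simulated data. Gene positions came from GENCODE vM21. Genes were named as the 12 smallest p values per direction (protein-coding, at least 5 FPM in a group, no predicted genes), Egfr, Erbb2, Rgs5 and Srf, up to 5 genes of each kind without overlap in opposite order, and, per list, the 2 most abundant and those with an unadjusted p under 0.05. Bank1, Gm20594, Hbegf, Jun, Egr1, Fos, Fosl1, Zfp36, Egr2, Vcl, Myl9 and Cfd fall outside this rule and were named after their values were seen. Some genes that the rule names are not reported here. The members and lists were chosen with earlier results of these data known. Lists were described by counts and medians, without set tests. Alternatives used limma 3.58.1 and DESeq2 1.42.0, other scaling and filters, an adipocyte covariate and removal of mice. Figures were drawn with matplotlib 3.10.9.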

Additional observations from a re-analysis of the deposited data

Results flagged for a closer look

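Among 180 groups of 4 mice checked for a single mouse far from the other 3 (Dixon's ratio above 0.829), 10 stood out, and chance gives about 1 in 20. Mouse KO-HFD-1454 was apart from its group for 3 genes: Rgs5 at 2360 FPM (others 3100 to 3220), Plin4 at 440 FPM (others 375 to 378) and Cd2 at 0 FPM (others 0.56 to 0.684). Gata3 was low in mouse KO-HFD-1504, at 5.6 FPM (others 9.58 to 10.5), and in mouse WT-HFD-1442, at 11.2 FPM (others 14.7 to 15.3). Upk3b was at 2.11 FPM in mouse WT-HFD-1443 (others 0 to 0.102). Mouse WT-HFD-1442 also had the highest mean log2 CPM of its group for the interferon response, 2.83 (others 2.55 to 2.56), and for the fibroblast markers, 7.44 (others 7.01 to 7.02). The inflammation genes stood at 3.97 in mouse KO-HFD-1503 (others 2.44 to 2.61), and the cardiac muscle markers at 1.76 in mouse WT-HFD-1448 (others 2.42 to 2.51). The median interaction of the inflammation genes, 0.36 with all mice, was -0.16 without mouse KO-HFD-1503. Groups of 3 mice were not checked.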

How the results depend on the processing

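The count of genes with an interaction at an adjusted p under 0.05 was 0 under RLE factors, library totals, the legacy edgeR test, limma voom with sample quality weights, both other low count filters, protein-coding genes, the adipocyte covariate and both removals of SFD mice, from 0 to 0 with any 1 mouse left out, and 2 with DESeq2. At an unadjusted p under 0.05, leaving out 1 mouse gave 501 (without mouse KO-HFD-1504) to 1570 genes (without mouse WT-SFD-1445), and the other settings gave 379 (stricter filter) to 1761 (voom). For HFD against SFD in WT the count of 0 became 312 with library totals, 666 with DESeq2, 1924 with voom, 347 without a filter, 1 with the covariate (Gm6415), 2112 without WT-SFD-1445 and KO-SFD-1507, and 1 without WT-SFD-1309, WT-SFD-1310, KO-SFD-1319 and KO-SFD-1452 (Zfp459). It ran from 0 to 1907 with 1 mouse left out, with 1907 without WT-SFD-1445, 630 without KO-SFD-1319 and 438 without KO-SFD-1507. In KO it became 8 with DESeq2, 1 with the covariate (Cyp2e1), 636 without WT-SFD-1445 and KO-SFD-1507 and 2 without the 4 mice (RP23.461J11.1 and Cyp4a32), and ran from 0 to 15 (without KO-SFD-1507). Removing the 4 mice leaves 1 SFD mouse per genotype, which is assumed to vary like the mice of the other groups. The cause of these moves was not tested. These few genes were named after their values were seen.

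The sign of the interaction changed for Rgs5, to -0.0384, and for Egfr, to 0.249, without the same 4 mice. Egfr ran from -0.187 without WT-SFD-1445 to 0.0445, and it also changed sign to 0.0413 without WT-SFD-1310, 0.0445 without KO-SFD-1452 and 0.00554 without KO-HFD-1454. Rgs5 stayed positive in all 14 fits with 1 mouse left out (0.109 to 0.46). Among all 119 named genes the sign changed for 33 without the same 4 mice, for 17 with library totals and for 39 with at least 1 of the single mice left out. Among the 38 list medians these numbers were 18, 5 and 20. No paired analysis was possible because the replicate numbers only follow the order of the samples and no label pairs mice across groups. At an unadjusted p under 0.05 the diet counts without the same 4 mice were 941 in WT and 475 in KO. Lists with no gene past the stricter filter gave no value there. Depth limits genes under about 0.24 to 0.433 FPM, the worth of 3 counts in a library.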
